A study of Mus musculus with 7 samples.

Results

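Desmosomal cadherins are the transmembrane proteins of desmosomes, the spot junctions that fasten the keratin networks of neighbouring epithelial cells to each other. The mouse family has 9 genes, 6 desmogleins (Dsg1a, Dsg1b, Dsg1c, Dsg2, Dsg3 and Dsg4) and 3 desmocollins (Dsc1, Dsc2 and Dsc3). These were taken by name from the 56691 genes of the count table, with no cut on a measured value. The family was chosen with earlier results of these data known. Desmogleins and desmocollins of neighbouring cells bind through their outer domains, while their inner tails hold plakoglobin and plakophilins, which connect to desmoplakin and from there to keratin. In epidermis the family is layered: desmoglein 3 and desmocollin 3 are richest in basal and lower cells, desmoglein 1 and desmocollin 1 gain towards the surface, and desmoglein 4 is known from the hair shaft. Loss or antibody blockade of these proteins is known for blistering, fragile skin and abnormal hair.

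The tissue was skin from 7 mice, 1 library per mouse. The knockout group held mice 2, 3 and 4, which lack Tuft1 and whose skin was described as looking healthy, and the wild-type group held mice 5, 6, 7 and 8. Tuft1 encodes tuftelin 1, which the series' title places at desmosomes, and the comparison asked which skin transcripts differ without it. The labels give no strain, age, allele, body site or batch for either group. Libraries were made with a kit that reads the 3′ ends of polyadenylated RNA, so each transcript gives about 1 tag whatever its length, and levels of different genes are set side by side without division by length. Levels are CPM, a gene's counts per 1000000 counts of its library, with library sizes scaled by the trimmed mean of M values (TMM). How well the 3′ end of each gene was captured was not tested.

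Libraries held 7009237 to 9256459 counts. Tuft1 itself averaged 22.1 ± 6.23 CPM in the 3 knockout mice (SD). In the 4 wild-type mice its mean was 94.9 ± 26.6 CPM (SD), and the edgeR adjusted p was 0.172. The deleted part of the gene is not given, and tags from a part left in place would still be counted. All 10 basal keratinocyte markers had counts in every library, and the 13 suprabasal markers had counts in every library except 1 marker in mouse 4. Knockout mouse 2 stood apart: 23 of 24 hair shaft and inner root sheath markers had counts in it, while the other 6 libraries had 3 to 6 each. Because this is whole skin, fewer cells of a type and less RNA per cell cannot be told apart in any value that follows.

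The 9 genes form 1 cluster of 643.592 kb on chromosome 18 (mm39, 20093987 to 20737578). The desmocollins lie on the minus strand in the order Dsc3, Dsc2, Dsc1, and the desmogleins follow on the plus strand in the order Dsg1c, Dsg1a, Dsg1b, Dsg4, Dsg3, Dsg2. The interval holds 2 other gene models, both with 0 counts, and 1 of these overlaps exons of Dsg2 on the opposite strand. Expression along the cluster was uneven. Dsg1a (20443868 to 20476407) gave 26938 of the family's counts over the 7 libraries and Dsc3 (20093987 to 20135408) gave 11318. Dsg3 (20643331 to 20680516) gave 3297 and Dsg2 (20691131 to 20737578) gave 2636. Dsc1 (20217241 to 20247928), Dsc2 (20163690 to 20192611) and Dsg1b (20509786 to 20543253) gave 598, 363 and 255 counts. Dsg1c (20380397 to 20418088) and Dsg4 (20569232 to 20604878) gave 0. The gene with the most counts, Dsg1a, thus lies between Dsg1c, with none, and Dsg1b, with few.

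In wild-type skin the order by level was Dsg1a at 504 ± 51.4 CPM, Dsc3 at 203 ± 36.2 CPM, Dsg3 at 46.6 ± 19.9 CPM, Dsg2 at 42.0 ± 19.8 CPM, Dsc1 at 11.05 ± 7.37 CPM, Dsg1b at 7.11 ± 8.72 CPM and Dsc2 at 2.19 ± 3.74 CPM (SD, n = 4). Dsg1a, the desmoglein of the upper layers, exceeded Dsc3 by 2.48 times in the means and did so in 4 of 4 mice, with ranges that did not meet. Dsc3, the desmocollin of the lower layers, exceeded Dsg3 by 4.36 times, again in 4 of 4 mice and without meeting ranges. Dsg3 and Dsg2 could not be ordered, since Dsg3 was above Dsg2 in 2 of 4 mice. Dsg2, the desmoglein of simple epithelia and heart as well as skin, lay above Dsc1 in 4 of 4 mice. The ranges of Dsc1, Dsg1b and Dsc2 met each other and reached 0. In knockout skin the first 4 places by mean were held by the same genes in the same order. Dsg3 was above Dsg2 in 2 of 3 knockout mice, and their ranges met. Dsc2 (12.3 ± 16.8 CPM) stood before Dsc1 (8.12 ± 9.75 CPM) and Dsg1b (0.469 ± 0.717 CPM), with overlapping ranges (SD, n = 3).

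**Figure D1:**
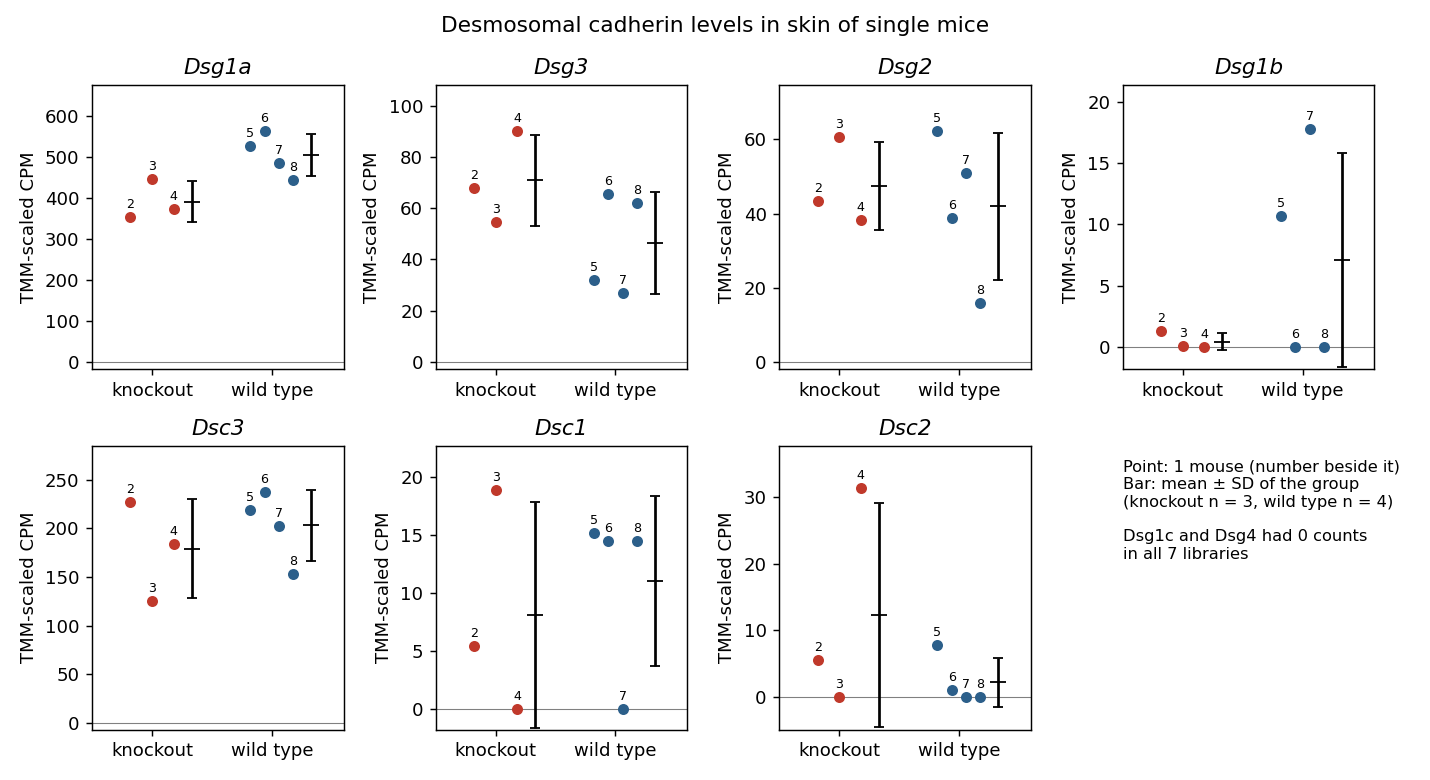
TMM-scaled CPM of the 7 cadherin genes with counts, 1 panel per gene with its own axis, 1 point per mouse with the mouse number, and a bar for the mean ± SD of each group. The groups of Dsg1a nearly part (knockout 352 to 446 CPM, wild type 443 to 562 CPM), while Dsg1b, Dsc1 and Dsc2 swing between 0 and their highest value within a group.

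None of the 9 genes was called different between knockout and wild-type skin. With edgeR's quasi-likelihood test over 12888 genes and a Benjamini-Hochberg adjusted p below 0.05 as the call, 0.0233% of all tested genes were called, 0.0155% higher and 0.00776% lower in knockout skin. The 7 cadherins with counts all passed the filter on low counts, and each had an adjusted p of 0.9997 by that test. Before adjustment 0 of the 7 had a p under 0.05 in edgeR, where 4.31% of all tested genes did. DESeq2's Wald test gave 1 such gene, Dsg1a, and called 0 after adjustment. In 3 of the 7 the log2 fold change (knockout over wild type) was above 0 and in 4 below, with a median of -0.18. The median moved to 0.14, with 4 of 7 above 0, when knockout mouse 4 was left out. Over all tested genes 50.54% lay below 0, with a median of -0.0098. The groups of every cadherin overlapped, where 6.89% of all tested genes were separated.

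Among the desmogleins, Dsg1a came closest to separated groups. It encodes a form of desmoglein 1, the target of skin-blistering antibodies in pemphigus foliaceus and of the staphylococcal exfoliative toxins. Its level was 352, 446 and 373 CPM in knockout mice 2, 3 and 4. In wild-type mice 5, 6, 7 and 8 it was 526, 562, 484 and 443 CPM. All 3 knockout mice lay below the wild-type mean, and mouse 3 alone reached into the wild-type range, just above mouse 8. The mean was 390 ± 49.3 CPM in knockout skin and 504 ± 51.4 CPM in wild-type skin, a fold of 0.774 with a 95% interval of 0.574 to 1.04. The log2 fold change was -0.37 (SE 0.20, edgeR adjusted p = 0.9997), and an exact two-sided permutation test of the levels over 35 splits gave p = 0.0857, where the smallest possible is 0.0286. This interval leaves room for no difference and, at its other end, for a level 0.574 times that of wild type.

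Dsg3, the antigen of pemphigus vulgaris and the desmoglein of basal and follicular cells, had the opposite sign. Its level was 67.8, 54.8 and 90.1 CPM in knockout mice 2, 3 and 4. The wild-type values were 32.1, 65.4, 26.9 and 62.0 CPM in mice 5, 6, 7 and 8. Wild-type mice therefore fell into a lower pair (5 and 7) and a higher pair (6 and 8), and the higher pair lay inside the knockout range. Means were 70.9 ± 17.9 CPM in knockout skin and 46.6 ± 19.9 CPM in wild-type skin, a fold of 1.52 (95% interval 0.823 to 2.81, edgeR adjusted p = 0.9997). The exact two-sided permutation p was 0.229.

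The ratio of Dsg1a to Dsg3 combines both genes and was 5.19, 8.14 and 4.14 in knockout mice 2, 3 and 4. In wild-type mice 5, 6, 7 and 8 it was 16.4, 8.60, 18.01 and 7.15. Mouse 8 lay below knockout mouse 3, so the groups overlapped, and the ratio is given as a description of the same values. Its mean was 5.82 ± 2.07 in knockout skin and 12.5 ± 5.46 in wild-type skin.

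Dsg2 was at 43.4, 60.7 and 38.3 CPM in knockout mice 2, 3 and 4. The wild-type libraries held 62.2, 38.8, 51.1 and 15.97 CPM for mice 5, 6, 7 and 8. The wild-type range spanned the whole knockout range, with mouse 8 lowest of all 7. Means were 47.4 ± 11.8 CPM and 42.0 ± 19.8 CPM, a fold of 1.13 (95% interval 0.543 to 2.35, edgeR adjusted p = 0.9997), and the exact two-sided permutation p was 0.771. The sign of this difference rested on single mice: the log2 fold change was 0.18 over all mice, -0.043 without knockout mouse 3 and -0.10 without wild-type mouse 8.

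Dsg1b, a second copy of the desmoglein 1 gene, had 10, 1 and 0 counts in knockout mice 2, 3 and 4. In wild-type mice 5, 6, 7 and 8 it had 99, 0, 145 and 0 counts. Wild-type skin was thus split between mice with clear counts and mice with none, and no knockout mouse exceeded 1.29 CPM. Its fitted log2 fold change of -3.88 had a 95% interval of -10.5 to 2.77, too wide to give a direction. Without knockout mouse 2 the log2 value was -6.63.

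Reads from stretches that the desmoglein 1 copies have in common could be shared in counting. No 50-base window in the last 300 bases of any copy was among these stretches. In the longest GENCODE M21 transcripts (GRCm38), Dsg1a and Dsg1b matched at 97.4% of aligned bases, and 31.6% of all 50-base windows of Dsg1a occurred unchanged in Dsg1b. These shared windows did not reach the ends. In the last 300 bases of Dsg1a, 0% of the 50-base windows occurred in Dsg1b or Dsg1c, and the nearest shared window ended 2109 bases before the Dsg1a end. For Dsg1b the nearest window shared with Dsg1a ended 377 bases before its end. The sources used here do not say how reads that fit several genes were counted, so the split between copies is uncertain. Summed over Dsg1a, Dsg1b and Dsg1c, the level was 391 ± 48.8 CPM in knockout skin and 511 ± 51.4 CPM in wild-type skin. The log2 fold change of the sum was -0.39 (edgeR adjusted p = 0.9997), against -0.37 for Dsg1a alone.

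Dsg1c, the third copy, and Dsg4, the desmoglein of the hair cortex whose mutation is known from lanceolate hair mice and from human hypotrichosis, had 0 counts in every library. Taking 3 counts as the limit, this allows 0.323 to 0.395 CPM by library, for counting error only. Dsg4 was at 0 also in knockout mouse 2, where Krt81, Krt25 and Krt71, keratins of the hair shaft and its inner sheath, stood at 139, 133 and 123 CPM and had 0 counts in the other 6 libraries. Whether these 0 counts reflect absent transcripts or poor capture was not tested. Ctnnb1, which encodes β-catenin and is used by epithelial cells in general, was also low. It was at 1.00 ± 0.892 CPM in knockout skin and 3.71 ± 3.79 CPM in wild-type skin and had 0 counts in mouse 3. The reason for its level was not tested either.

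Among the desmocollins, Dsc3 carried most of the tags. It pairs with Dsg3 in basal cells and is needed for epidermal adhesion in mice. Its level was 228, 126 and 184 CPM in knockout mice 2, 3 and 4. The wild-type values were 219, 238, 203 and 153 CPM in mice 5, 6, 7 and 8. Knockout mouse 3 was lowest of the 7, while mouse 2 ranked second, so the groups overlapped in part, from 153 to 228 CPM. The means were 179 ± 51.1 CPM and 203 ± 36.2 CPM, a fold of 0.883 (95% interval 0.595 to 1.31, edgeR adjusted p = 0.9997), with an exact two-sided permutation p of 0.457. Without mouse 3 the log2 fold change moved from -0.18 to 0.020.

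Dsc1, the desmocollin of the upper layers, had 5.44, 18.9 and 0 CPM in knockout mice 2, 3 and 4. Its wild-type levels were 15.2, 14.5, 0 and 14.5 CPM in mice 5, 6, 7 and 8. The 3 wild-type mice with counts were close together, and mouse 7 had none, although its suprabasal markers summed to the highest level of the 7 libraries (26311 CPM). The log2 fold change was -0.44 with a 95% interval of -4.56 to 3.67, and it was 0.14 without knockout mouse 4.

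Dsc2, the widely expressed desmocollin, had 43, 0 and 239 counts in knockout mice 2, 3 and 4. Wild-type mice 5, 6, 7 and 8 had 72, 9, 0 and 0 counts. The knockout mean of 12.3 ± 16.8 CPM against 2.19 ± 3.74 CPM came largely from mouse 4, at 31.4 CPM. The log2 fold change of 2.48 had a 95% interval of -2.78 to 7.75 and fell to 0.34 without mouse 4. The libraries at 0 were partly different for Dsc1 and Dsc2: mouse 4 had the most Dsc2 and no Dsc1, mice 3 and 8 had Dsc1 and no Dsc2, and mouse 7 had neither.

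The spread of the members over wild-type mice rose as their wild-type mean fell. Over wild-type mice the coefficient of variation was 10.2% for Dsg1a and 17.8% for Dsc3, against medians of 16.8% and 23.8% over all tested genes at 320 to 1280 and at 80 to 320 mean CPM. For Dsg2 and Dsg3 it was 47.2% and 42.7%, against a median of 40.4% at 20 to 80 CPM. Dsc1 was at 66.7% and Dsc2 at 171%, against 76.6% at 5 to 20 CPM, and Dsg1b at 123% against 121% at 2 to 5 CPM. Bands went by the mean over all 7 mice, which was 6.54 CPM for Dsc2 and 4.27 CPM for Dsg1b. Their wild-type means stood the other way round, at 2.19 and 7.11 CPM, so the band medians are a rough guide for both genes. Counts of 0 in some library, as in Dsc1 and Dsc2, were found in 62.0% of the tested genes of that band, and in 96.6% of those in the band of Dsg1b. Zeros were thus common among genes at the level of the rare cadherins.

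Read as a family, the 9 genes summed to 703, 706 and 717 CPM in knockout mice 2, 3 and 4. The sums were 872, 920, 783 and 689 CPM in wild-type mice 5, 6, 7 and 8. Knockout mice were close together, and wild-type mouse 8 lay below all of them. Dsg1a took 55.1% ± 7.06 of the summed CPM in knockout skin and 61.9% ± 1.76 in wild-type skin, Dsc3 took 25.3% ± 7.29 and 24.8% ± 1.74, Dsg3 took 9.99% ± 2.42 and 5.81% ± 2.71, and Dsg2 took 6.70% ± 1.69 and 5.05% ± 2.21 (SD, n = 3 and 4). Ranges of both groups overlapped for each of these shares. Desmogleins exceeded desmocollins by 2.72 ± 1.03 times in knockout skin and 2.80 ± 0.234 times in wild-type skin, so the balance of the subfamilies was similar in the means and more scattered among knockout mice. All 3 knockout mice lay outside the wild-type range of 2.61 to 3.11, mouse 2 at 1.95 and mouse 4 at 2.32 below it and mouse 3 at 3.88 above.

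**Figure D2:**
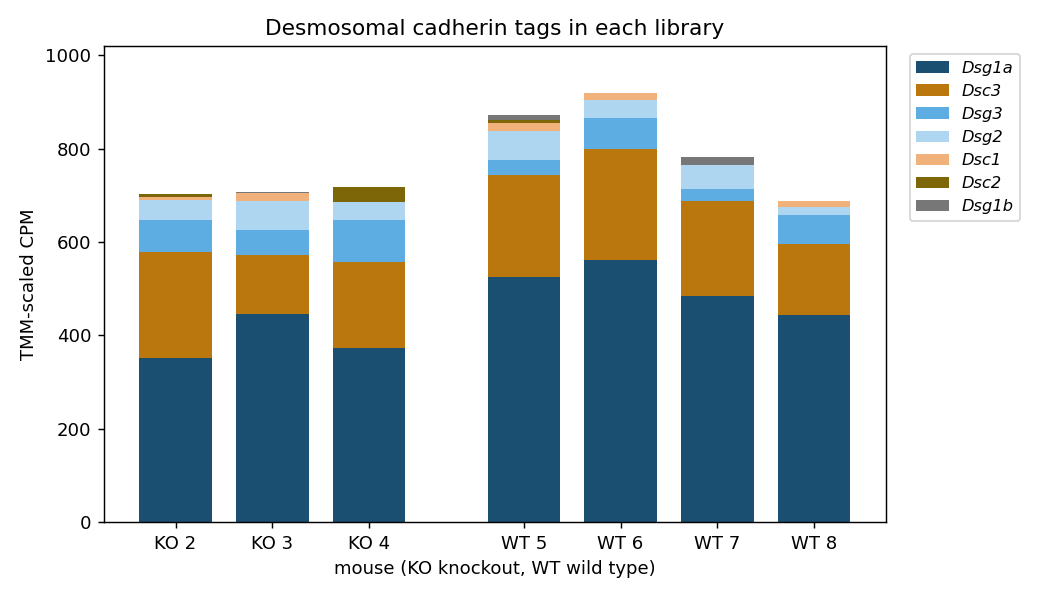
Stacked TMM-scaled CPM of the cadherin genes in each library (Dsg1c and Dsg4 are at 0), with knockout mice (KO) at left and wild-type mice (WT) at right. Dsg1a and Dsc3 make up most of every bar, and the 3 knockout bars (703 to 717 CPM) are close in height to the bar of wild-type mouse 8 (689 CPM) and shorter than those of mice 5 to 7.

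Because the cadherins are made in different layers, their levels were set beside keratinocyte markers. Basal markers (Krt5, Krt14, Krt15, integrins and others) summed to 8376 to 11969 CPM in knockout skin and 7715 to 10502 CPM in wild-type libraries, with 6 of 10 genes above 0 in log2 fold change (4 of 10 without knockout mouse 4). Suprabasal markers (Krt1, Krt10, Lor, Krtdap and others) summed to 14039 to 19999 CPM in knockout skin and 20279 to 26311 CPM in wild-type libraries. These ranges did not overlap, though mouse 2 (19999 CPM) and mouse 8 (20279 CPM) lay close. Of single tested genes 6.89% were separated, and no such share was computed for marker sums. In log2 fold change 9 of 13 suprabasal markers were below 0, beside 50.54% of all tested genes. None of these 23 markers was called by edgeR or by DESeq2's Wald test. An unadjusted p under 0.05 in edgeR was found for 3 of them, beside 4.31% of all tested genes. Of the 13 suprabasal markers 2 had such a p in that fit, and 1 to 5 with 1 mouse left out. By DESeq2's Wald test 5 of the 13 did, beside 1212 of 19128 genes. The suprabasal sum was 0.757 times the wild-type level, beside 0.774 for Dsg1a. Lor, the cornified envelope protein loricrin, was at 4065 ± 384 CPM in knockout skin and 6170 ± 1385 CPM in wild-type skin, and Krt10 at 3529 ± 881 CPM and 4954 ± 657 CPM. Krt1 was among the 4 of 13 suprabasal markers that went the other way, at 1564 ± 370 CPM and 1389 ± 290 CPM.

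Per 1000 CPM of suprabasal markers, Dsg1a stood at 22.6 ± 4.55 in knockout skin and 21.8 ± 2.94 in wild-type skin, with overlapping ranges. Per 1000 CPM of basal markers it stood at 42.0, 49.9 and 31.1 in knockout mice 2, 3 and 4. The wild-type values on that scale were 50.1, 59.3, 57.8 and 57.5 in mice 5, 6, 7 and 8. Here the groups did not overlap, though mouse 3 and mouse 5 all but met. Among single tested genes 6.89% were separated, and no such share was computed for ratios. The ranges of the other cadherin ratios given here overlapped. Dsg3, counted per 1000 CPM of basal markers, was at 7.25 ± 1.01 in knockout skin and 5.30 ± 2.55 in wild-type skin, and Dsc3 at 18.9 ± 7.21 and 22.5 ± 2.55, both with overlapping ranges. The part of the suprabasal markers in the Dsg1a values was not tested.

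**Figure D3:**
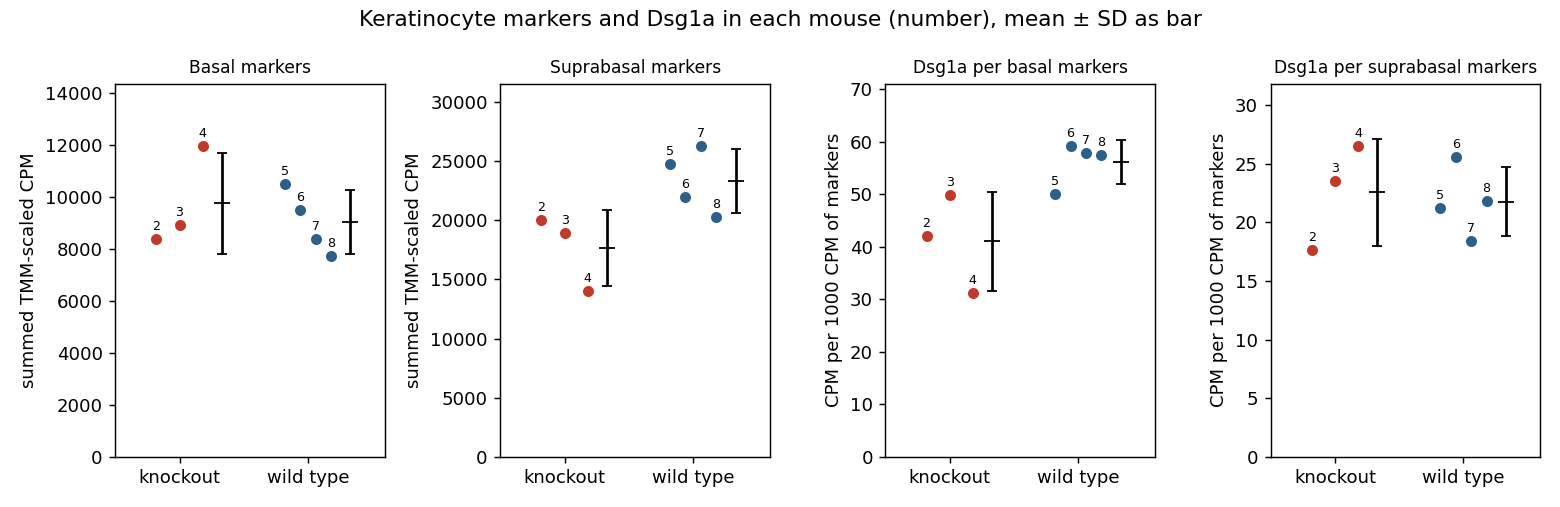
Summed CPM of basal and suprabasal keratinocyte markers, and Dsg1a per 1000 CPM of each, with 1 point per mouse (number) and the mean ± SD of each group as a bar. Suprabasal markers part the groups (at most 19999 CPM in knockout, at least 20279 CPM in wild type), Dsg1a per suprabasal markers does not, and Dsg1a per basal markers parts them narrowly (49.9 against 50.1).

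Scaling the libraries by these 23 markers instead of by all genes moved the median log2 fold change of all genes by 0.13. On that scale Dsg1a was at -0.23, against -0.37 with TMM, and Dsg3 at 0.68 against 0.61. Dsc3 was at -0.039 against -0.18, and Dsg2 at 0.37 against 0.18. Values relative to the median of all genes follow. Subtracting it takes out a shift common to all genes, so near-equal values there do not test the scaling. In these terms Dsg1a was at -0.35, against -0.36 with TMM. Dsg3 was at 0.57 against 0.62, Dsc3 at -0.16 against -0.17 and Dsg2 at 0.25 against 0.18. The cadherins called remained 0 of 7.

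Transcripts of plaque proteins and other desmosome partners lay mostly on the lower side without being called. Leaving out Tuft1 itself, 10 of 11 such genes had a log2 fold change below 0, beside 50.54% of all tested genes, with a median of -0.27, and 0 were called by edgeR or by DESeq2's Wald test (1 with an unadjusted p under 0.05 in each). On the scaling by keratinocyte markers 8 of 11 lay below 0, with a median of -0.13. There the median of all tested genes was 0.12, against -0.0098 with TMM, so the 2 counts below 0 are not on a like footing. Desmoplakin (Dsp), the link to keratin, was at 1370 ± 196 CPM in knockout skin and 1645 ± 281 CPM in wild-type skin. Plakoglobin (Jup), which binds both cadherin classes, was at 189 ± 55.6 CPM and 206 ± 35.1 CPM. Plakophilin 1 (Pkp1), the plakophilin of upper layers, was at 524 ± 105 CPM and 681 ± 212 CPM, and Pkp3 at 378 ± 35.5 CPM and 372 ± 89.6 CPM. Perp, a membrane protein of desmosomes, was at 1003 ± 110 CPM and 1205 ± 87.8 CPM. Periplakin (Ppl) had the smallest p of the 11, at 266 ± 94.5 CPM and 422 ± 44.2 CPM (log2 fold change -0.67, 95% interval -1.20 to -0.13, edgeR adjusted p = 0.9997). Corneodesmosin (Cdsn), which coats the desmosomes of the horny layer, was at 602 ± 53.1 CPM and 620 ± 73.5 CPM. Evpl, Pkp4, Kazn and Pkp2 had log2 fold changes of -0.21, -0.35, -0.42 and -0.46.

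**Figure D4:**
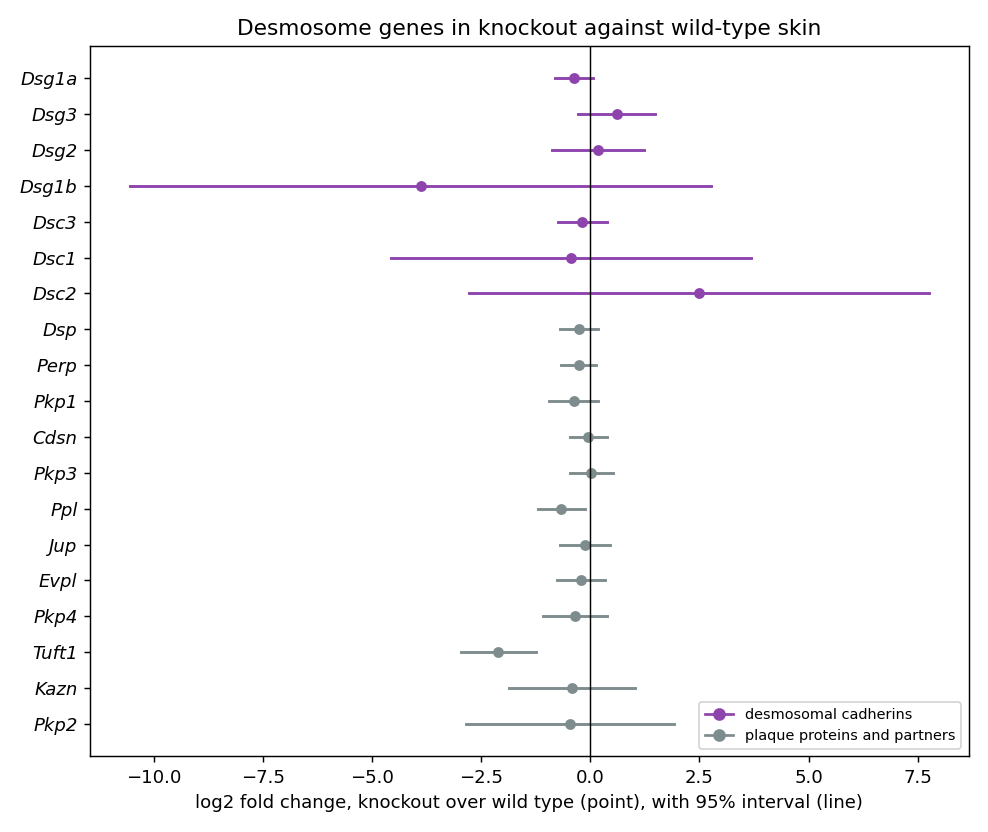
Log2 fold change of knockout over wild type (points) with 95% intervals from edgeR (lines) for the 7 cadherins with counts and for plaque proteins and partners, the latter ordered by level. Intervals of all 7 cadherins cross 0, and those of Dsg1b, Dsc1 and Dsc2 span many doublings, while Tuft1 (-2.95 to -1.25) and Ppl lie wholly below 0.

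Classical cadherins, which build adherens junctions, were measured in the same libraries. Cdh1, encoding E-cadherin, was at 797 ± 171 CPM in knockout skin and 813 ± 59.8 CPM in wild-type skin. Its log2 fold change had a 95% interval from -0.46 to 0.41. Of the catenins, Ctnnd1 was at 354 ± 30.2 CPM and 274 ± 35.2 CPM, and Ctnna1 at 116 ± 41.3 CPM and 147 ± 31.1 CPM. None of the 5 genes of this list was called by edgeR (0 with an unadjusted p under 0.05) or by DESeq2's Wald test. The interval of Dsg1a, from -0.80 to 0.06, overlapped that of Cdh1, and a difference between the genes was not tested.

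Genes for proteases that cut cadherins or desmosomes, and for their inhibitors, formed another list. Of 13 tested, 7 lay above 0 and 6 below, with a median log2 fold change of 0.030 (-0.041 without wild-type mouse 8) and 0 called in edgeR (1 with an unadjusted p under 0.05) or by DESeq2's Wald test. Without the filter on low counts 14 were tested and 1 was called. Spink5, the inhibitor whose loss lets kallikreins digest desmoglein 1, was at 1613 ± 348 CPM in knockout skin and 1581 ± 168 CPM in wild-type skin. The kallikrein Klk7 was at 1010 ± 239 CPM and 1293 ± 198 CPM, and the cathepsin Ctsd at 513 ± 123 CPM and 520 ± 103 CPM. Adam10, a sheddase of cadherins, was the gene with the unadjusted p under 0.05, at 17.2 ± 8.30 CPM and 42.3 ± 13.7 CPM (edgeR adjusted p = 0.9997), and was named after its values were seen.

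Transcription factors known from cadherin promoters or from the layers that use them had 10 of 14 genes below 0, a median log2 fold change of -0.35 and 0 called in edgeR (1 with an unadjusted p under 0.05) or by DESeq2's Wald test. Grhl1, a grainyhead factor known to act on Dsg1, was at 231 ± 35.8 CPM in knockout skin and 295 ± 40.1 CPM in wild-type skin. Klf5 was at 602 ± 44.2 CPM and 695 ± 91.8 CPM, and Klf4 at 296 ± 42.4 CPM and 377 ± 99.9 CPM. Signalling genes around desmosomes had 8 of 11 above 0, a median of 0.24 and 0 called (0 with an unadjusted p under 0.05, and 0 called by DESeq2's Wald test). Without knockout mouse 4 there were 5 of 11 above 0 and the median was -0.040. Stat3, a factor activated downstream of growth factor receptors, was at 284 ± 136 CPM in knockout skin and 341 ± 86.4 CPM in wild-type skin. Egfr, the receptor whose activity loosens desmosomes, was at 118 ± 12.8 CPM and 104 ± 6.89 CPM, and the small GTPase gene Rhoa at 115 ± 51.3 CPM and 97.2 ± 41.6 CPM.

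Outside the epidermis, fat cell markers summed to 3151 to 5634 CPM in knockout skin and 8161 to 14137 CPM in wild-type libraries without overlap, and companion layer markers to 1357 to 2082 CPM and 747 to 1017 CPM. Of 10 fat cell markers, 10 lay below 0 and 9 had an unadjusted p under 0.05 in edgeR, beside 4.31% of all tested genes. Of these 10, 0 were called by edgeR and 7 by DESeq2's Wald test. Of the companion layer markers 1 was called by edgeR and 2 by DESeq2's Wald test. Over the whole table edgeR called 0.0233% of tested genes and DESeq2's Wald test 101 of 19128. A share of separated groups was not computed for marker sums. The edgeR call was Krt6a, a stress and companion layer keratin that rose from 102 ± 32.2 CPM in wild-type skin to 508 ± 201 CPM in knockout skin (edgeR adjusted p = 0.0256). The part of these other cell types in the cadherin values was not tested. Simple epithelial keratins, which mark cells that also use Dsg2 and Dsc2, were at or near 0: Krt7 and Krt8 had 0 counts in all 7 libraries, and Krt18 and Krt19 reached at most 6.34 CPM in mouse 2 and 3.03 CPM in mouse 4. Hair markers summed to 1464 CPM in mouse 2 and to 530 to 861 CPM in the other 6 libraries, but Gata3 made up 482 to 749.6 CPM in every library. Without Gata3, the other 23 summed to 983 CPM in mouse 2 and to 45.5 to 111 CPM elsewhere. Without mouse 2, Dsg1a had a log2 fold change of -0.30, Dsg3 of 0.63, Dsc3 of -0.39 and Dsg2 of 0.23, and 0 of the 7 cadherins were called by edgeR (0 with an unadjusted p under 0.05).

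Genes whose profile over the 7 libraries was most like that of a cadherin were found by the root-mean-square difference of centred log2 CPM, among 8830 genes with a mean of at least 10 CPM. For Dsg1a these were Ammecr1, Gltp and Rdx, at 0.11, 0.12 and 0.12 log2 units, where the profile of Dsg1a itself had a spread of 0.23. For Dsg3 they were Pard6g, Slc37a3 and Zc3h18, at 0.14, 0.19 and 0.20, against a spread of 0.58. Pard6g was at 72.6 ± 14.8 CPM in knockout skin and 48.8 ± 14.9 CPM in wild-type skin. For Dsc3 they were Cdc123, Rpl30 and Atp6v1d, at 0.11, 0.12 and 0.14, against 0.31, and for Dsg2 Osbpl8, Dennd1b and Timm50, at 0.19 each, against 0.61. With so many candidates and 7 points, near matches are a description only. Among the 4 abundant cadherins, Dsg1a and Dsc3 were closest, at 0.35, and Dsg2 and Dsg3 farthest apart, at 1.01, with Dsg2 lowest in mouse 8 and Dsg3 lowest in mouse 7.

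**Figure D5:**
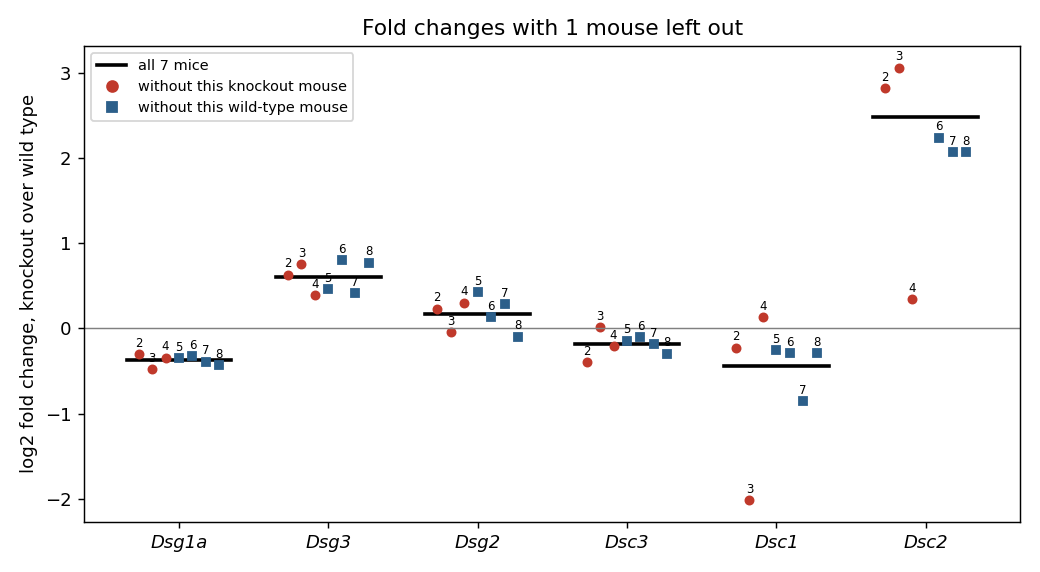
Log2 fold change of 6 cadherins over all 7 mice (black line) and with each mouse left out (red circles for knockout, blue squares for wild-type mice, numbered), where the gene still passed the filter. Dsg1a stays between -0.48 and -0.30 and Dsg3 between 0.39 and 0.80, whereas Dsg2, Dsc3 and Dsc1 cross 0 and Dsc2 drops to 0.34 without mouse 4.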

How the data were processed

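The deposited table holds raw whole-number counts per gene, with exon coordinates per the file headers. Per the submitters' processing notes, mm39, edgeR 3.36.0, Subread 2.0.3, featureCounts, STAR and GATK 4.2.4.0 were used, without roles. The sources used here do not give whether strand or reads fitting several genes were used. The authors' other table, of filtered log2 values for 12954 genes, was only checked: its 90678 values equalled TMM-scaled log2 CPM from edgeR at prior count 2 (tolerance 1e-09).

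Raw counts were analysed with edgeR 4.0.16 in R 4.3.3: filterByExpr at a minimum count of 10 (12888 genes kept), TMM, the quasi-likelihood F test and Benjamini-Hochberg adjustment over all genes tested. Standard errors and 95% intervals came from the F statistic. Permutation tests used absolute mean differences over all 35 assignments. Replicates are separate mice, and their numbers are not shared between groups, so nothing was paired. Alternatives were DESeq2 1.42.0 (size factors, Wald test with a local dispersion fit), no filter, a mean of at least 50 CPM, keratinocyte scaling and each mouse left out. Counts over gene lists under these settings were chosen after seeing the data. The members and gene lists were chosen with earlier results of these data known. Named genes were all members, Tuft1, the plaque list, up to 3 of the most abundant tested genes and any called gene of each other list, and the 3 nearest profiles. Adam10, Ctnnb1, Gata3, Klk6, the simple epithelial keratins, Krt1, Krt25, Krt71 and Krt81 were named after their values were seen.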

Additional observations from a re-analysis of the deposited data

Results flagged for a closer look

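Over the 4 wild-type mice, 19 desmosome genes were examined for a mouse far from the other 3 in log2 CPM, where chance gives about 1 in 20. Dsc1 was at -2.07 (0 counts) in mouse 7, against 3.88 to 3.95 in the others. The rate of 1 in 20 does not apply to this value. Counts of 0 in some library were found in 62.0% of tested genes at the level of Dsc1 (5 to 20 mean CPM). Tuft1 was at 5.80 in mouse 7, against 6.70 to 6.84. Pkp4, a relative of the plakophilins, was at 5.59 in mouse 5, against 6.33 to 6.45.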

How the results depend on the processing

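Calls among the cadherins numbered 0 under each of the 12 alternatives. The number of genes called over the whole table moved from 3 to 101 with DESeq2's Wald test, 76 without a filter and 23 at a mean of at least 50 CPM, and was 0 to 1 with 1 mouse left out; the cause was not tested. Tuft1 passed the threshold in those 3 settings (log2 fold change -2.08, -2.11 and -2.07). With 1 mouse left out, log2 fold changes ran from -0.48 to -0.30 for Dsg1a, 0.39 to 0.80 for Dsg3, -0.10 to 0.43 for Dsg2, -0.39 to 0.020 for Dsc3, -2.01 to 0.14 for Dsc1, 0.34 to 3.06 for Dsc2 and -6.63 to -3.32 for Dsg1b. The sign turned for Dsg2 (-0.043 without knockout mouse 3, -0.10 without wild-type mouse 8), Dsc1 (0.14 without knockout mouse 4) and Dsc3 (0.020 without knockout mouse 3), and under no other setting run. Dsg1b, Dsc1 and Dsc2 gave no value where they failed a filter. Ratios of mean CPM, recomputed on raw library totals, moved by less than 1 SD of the ratio, propagated from both groups' SDs (Dsg1a 0.801 against 0.774, SD 0.126). For counting error only, 3 counts equal 0.323 to 0.395 CPM. Dsg1b, with 99, 0, 145 and 0 counts in wild-type mice 5, 6, 7 and 8, varied by more than that, and the reason was not tested.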
